A study of Mus with 15 samples.

Results

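The genes described here encode the mitochondrial carrier for pyruvate, the pyruvate dehydrogenase (PDH) complex and its phosphatases, pyruvate carboxylase, the enzymes of the tricarboxylic acid (TCA) cycle, 2 transaminases, glutamate dehydrogenase and the itaconate-forming enzyme Acod1. They were chosen by name, as the rows of the deposited matrix whose symbol was on a list of 34 genes. All 34 were found among 55471 genes, and all 34 passed the filter on low counts with which 16051 genes were tested. RNA was measured by sequencing in adipose tissue of C57BL/6 mice of wild type genotype, aged 7 weeks, in 3 groups of 5 samples: fat grafts at day 3, fat grafts at day 7, and control adipose tissue. The labels give no other treatment or allele, and they do not name the fat depot, the site of the graft or the host. They do not say whether samples of a group came from separate animals, so p-values measure the spread between these samples, which may be technical. The series title concerns a shift of grafted fat toward glycolysis, and the comparisons below address how the genes that oxidise pyruvate differed in the grafts.

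Pyruvate made by glycolysis enters mitochondria through a carrier and is turned either into acetyl-CoA by the PDH complex or into oxaloacetate by pyruvate carboxylase, a step called anaplerosis because it refills the cycle. The TCA cycle oxidises acetyl-CoA and passes the electrons to the respiratory chain. In white adipocytes citrate also leaves the mitochondria as a carbon source for fatty acid synthesis, whereas activated macrophages divert an intermediate of the cycle into itaconate, which inhibits succinate dehydrogenase.

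Total counts were 23736037 to 29366860 in the day 3 grafts, 20192200 to 31997959 in the day 7 grafts and 17109216 to 31845173 in the controls. The tissue label was checked with 10 adipocyte markers, whose summed level was 2317 to 8771 CPM (the count per scaled library size) in day 3 grafts, 1157 to 2603 CPM in day 7 grafts and 17902 to 53814 CPM in controls, with none at 0 in any library. All 10 were lower in grafts than in controls at both days. The 8 macrophage markers summed to 4385 to 10392 CPM in day 3 grafts, 8379 to 12013 CPM in day 7 grafts and 1189 to 3320 CPM in controls, and all 8 were higher at both days. The 5 fibroblast markers summed to 12329 to 26416 CPM, 25513 to 30237 CPM and 1416 to 7034 CPM in the same order of groups, and 4 were higher at day 3 and 5 at day 7. Brown adipocyte markers (5 of 5) and markers of B cells and lymph node (7 of 7) were lower at both days, and 3 of 5 endothelial and 3 of 6 neutrophil markers were higher. Transcripts of the mitochondrial genome took 2.35% to 4.02% of the counts in day 3 grafts, 2.17% to 2.89% in day 7 grafts and 9.01% to 14.9% in controls. Control 4 stood apart from the other controls on the second principal component (10.5% of the variance), and control 2 held the most skeletal muscle RNA, with 3927 CPM summed over 8 markers against 26.1 to 381 CPM in the other controls. The results that follow are for bulk tissue, in which fewer cells of a type and less RNA per cell cannot be told apart.

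Most of the pathway was lower in the grafts, with the same genes called at both days. At day 3, 27 of the 34 genes were lower than in controls and 4 were higher, beside 30.2% and 30.1% of all tested genes, and 3 were not called. At day 7 the counts were again 27 lower and 4 higher, beside 28.4% and 32.3% of all tested genes, and each gene had the same call as at day 3. These calls are from limma-voom, with a gene called at an adjusted p under 0.05 over all 16051 genes, and both comparisons share the 5 control samples. The median log2 fold change was -1.66 at day 3 and -1.64 at day 7, against -0.014 and 0.031 over all tested genes. Levels of the 5 grafts and the 5 controls did not overlap for 31 of 34 genes at each day, beside 40.4% of all tested genes at day 3 and 42.5% at day 7. The 4 genes that rose were Pdp1, Got1, Got2 and Acod1, and the 3 that were not called were Idh1, Idh2 and Glud1. Without Acod1, which passed the filter through the grafts, 27 of 33 were lower and 3 higher at both days. Without day 3 graft 1 and control 2, which held the most muscle RNA of their groups, the counts were again 27 lower and 4 higher at both days. Without control 4 they were 27 lower at both days, with 5 higher at day 3, where Glud1 was added, and 4 higher at day 7. On the deposited TPM, which are not scaled for composition, 68.0% of the genes called at day 3 and 74.1% of those called at day 7 were higher, against 50.0% and 53.2% with the scaling used here. The median of adipocyte markers was -2.51 at day 3 and -4.24 at day 7, and that of macrophage markers was 3.28 and 3.20; the part of cell composition in the changes below was not tested.

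**Figure D1:**
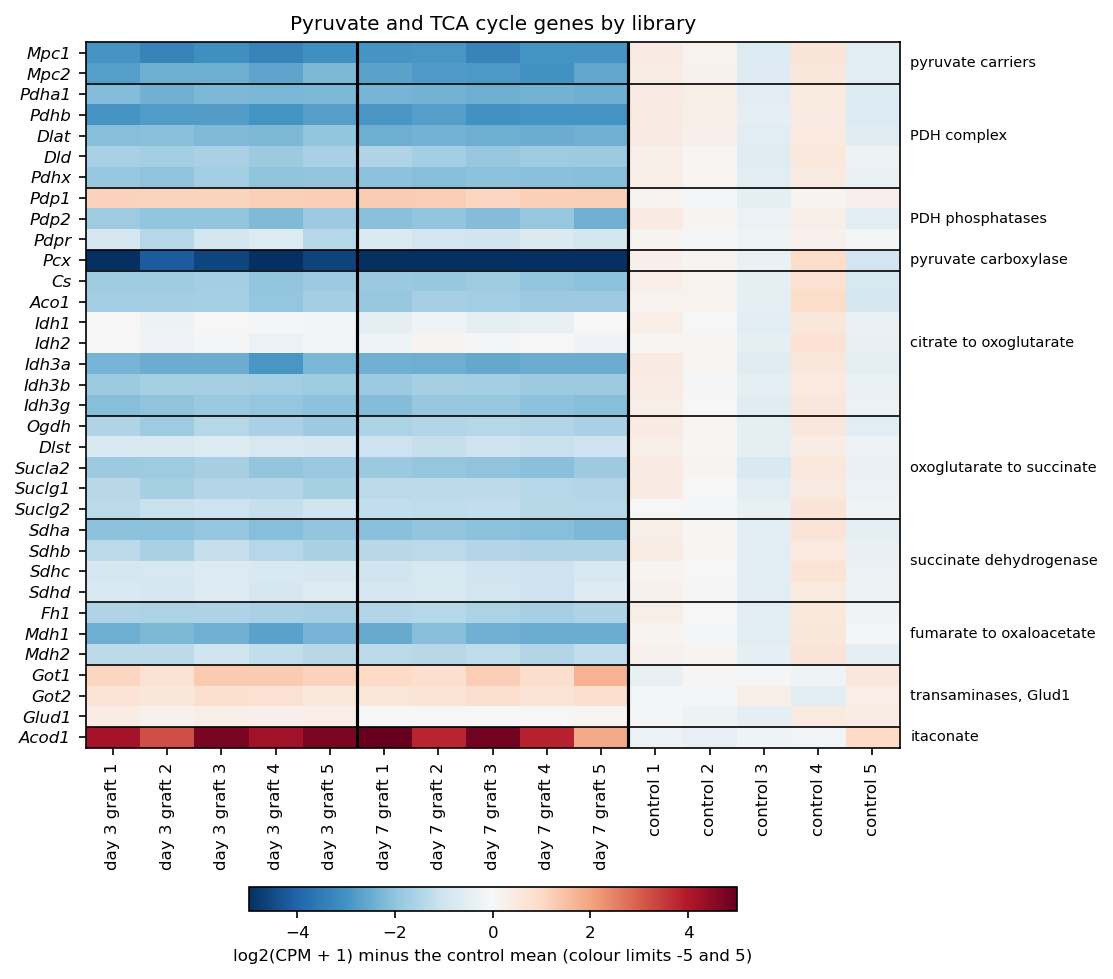
Level of each of the 34 genes (rows, grouped by step of the pathway) in each library (columns), as log2(CPM + 1) minus the mean of the 5 controls, with blue below and red above that mean. The grafts of both days are blue for 27 genes and red for Pdp1, Got1, Got2 and Acod1, and control 4 is the reddest control in most rows.

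**Figure D2:**
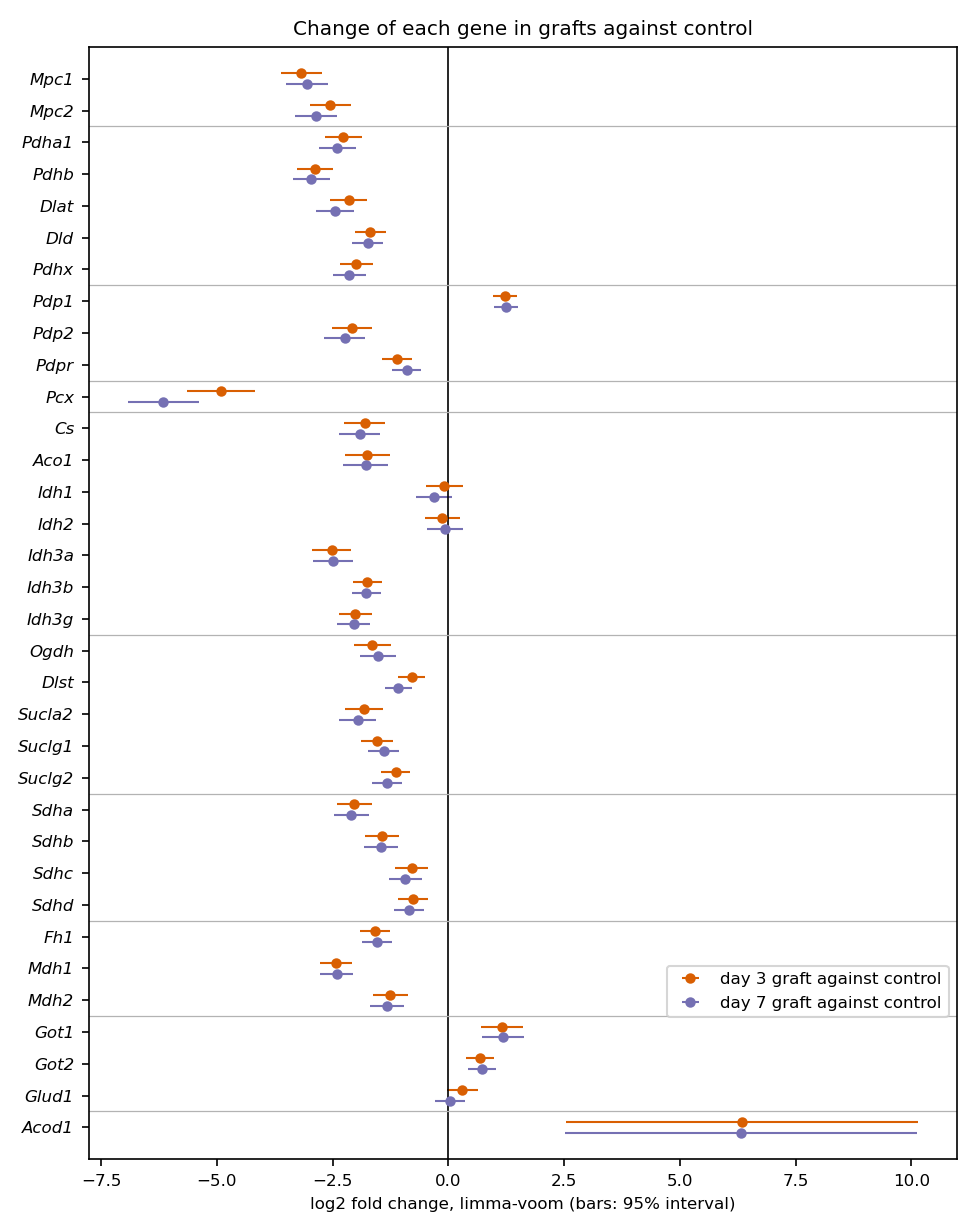
The log2 fold change of each gene at day 3 (orange) and day 7 (purple) against control, from limma-voom with 95% intervals (n = 5 samples a group). Pcx lies lowest, at -4.91 and -6.16, and Acod1 highest, at 6.33 and 6.32, with the widest intervals.

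The spread between samples also differed by group. The coefficient of variation was computed in scaled CPM. Its median over the 34 genes was 7.84% in day 3 grafts, 7.10% in day 7 grafts and 31.5% in controls. It was highest in controls for 32 of 34 genes, with Got1 and Pdpr as the exceptions. In TPM there were other exceptions. Mdh1 was at 629 ± 75.8 TPM in controls and 139 ± 21.1 TPM in day 3 grafts, a smaller spread relative to the mean in controls. The same held for Suclg2, at 54.4 ± 4.40 TPM in controls and 28.8 ± 2.90 TPM in day 7 grafts (SD, n = 5 each). In scaled CPM, control 4 had the highest control level of 29 of the 34 genes and control 3 the lowest of 23. The same libraries had the highest and the lowest summed level of adipocyte markers among the controls, 53814 CPM in control 4 and 17902 CPM in control 3. The markers of B cells and lymph node had the opposite order, with 145 CPM in control 4 and 2007 CPM in control 3. The other controls held 1426 to 1533 CPM of them. The levels of the 34 genes and of these markers depend on the scaling, whose factors were 0.746 for control 4 and 1.14 for control 3. In TPM the 34 genes summed highest in control 1, at 8623 TPM, and lowest in control 5, at 5560 TPM. Whether adipocyte or lymph node content sets the spread of these genes among controls was not tested.

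Positions are those of the deposited matrix, on the build mm10, for Pcx and Acod1, for the genes that rose, and for the gene with the largest change at day 3 in some of the steps described below. They are Mpc1 (ENSMUSG00000023861, chromosome 17, 8282904 to 8297661), Pdhb (ENSMUSG00000021748, chromosome 14, 8165996 to 8173025), Pdp1 (ENSMUSG00000049225, chromosome 4, 11958184 to 11966452), Pcx (ENSMUSG00000024892, chromosome 19, 4510472 to 4621752) and Idh3a (ENSMUSG00000032279, chromosome 9, 54586334 to 54604661). The others are Mdh1 (ENSMUSG00000020321, chromosome 11, 21556692 to 21572367), Got1 (ENSMUSG00000025190, chromosome 19, 43499752 to 43524605), Got2 (ENSMUSG00000031672, chromosome 8, 95864134 to 95888547) and Acod1 (ENSMUSG00000022126, chromosome 14, 103046977 to 103056573).

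RNA of the mitochondrial pyruvate carrier was among those that fell most. The carrier is a heteromer of Mpc1 and Mpc2, and both subunits fell at both days. Listed by replicate number from 1 to 5 here and below, Mpc1 was at 62.2, 47.00, 58.4, 48.03 and 58.3 CPM in the day 3 grafts, 63.6, 64.2, 47.6, 61.2 and 62.5 CPM in the day 7 grafts, and 653, 554, 306, 775 and 334 CPM in the controls. Every graft lay below every control, and the highest graft, at 64.2 CPM, was far under the lowest control, at 306 CPM. The log2 change of Mpc1 was -3.17 ± 0.21 at day 3 (adjusted p = 1.16e-07) and -3.05 ± 0.21 at day 7 (adjusted p = 9.08e-08). A processed copy of the gene, Mpc1-ps, held 5.07% as many counts as Mpc1, so some reads of either gene may be counted under the other. Mpc2 averaged 24.5 ± 3.29 CPM in day 3 grafts, 19.8 ± 2.54 CPM in day 7 grafts and 150.3 ± 52.3 CPM in controls (SD, n = 5 each), with log2 changes of -2.55 at day 3 and -2.86 at day 7.

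All 5 subunits of the PDH complex fell, by unequal amounts. Pdhb, the beta subunit of the decarboxylating E1 enzyme, changed most. It was at 60.2, 67.7, 67.2, 59.1 and 69.5 CPM in the day 3 grafts, 62.02, 69.1, 56.7, 59.3 and 58.6 CPM in the day 7 grafts, and 645, 582, 336, 647 and 294 CPM in the controls. The grafts stayed within a narrow band and did not overlap with the controls, of which control 5 was lowest. The log2 change of Pdhb was -2.88 ± 0.19 at day 3 (adjusted p = 1.08e-07) and -2.96 ± 0.19 at day 7 (adjusted p = 5.56e-08). Pdha1, the alpha subunit of E1 that carries the regulatory phosphorylation sites, averaged 165 ± 9.21 CPM in day 3 grafts, 151 ± 6.41 CPM in day 7 grafts and 839.9 ± 292 CPM in controls (SD, n = 5 each) and changed by -2.27 at day 3 and -2.40 at day 7. Dlat, the acetyltransferase E2 core, changed by -2.15 at day 3 and -2.45 at day 7, and Pdhx, which binds E3 to that core, by -1.98 at day 3 and -2.14 at day 7. Dld, the E3 dihydrolipoamide dehydrogenase that other dehydrogenase complexes also use, changed least of the 5, with -1.69 at day 3 and -1.74 at day 7. All 5 were called at both days, with adjusted p of at most 9.79e-07 (limma).

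The phosphatases, which switch PDH on by removing phosphate from E1, went in opposite directions. Pdp1, a calcium-stimulated catalytic subunit, rose in grafts of both days. It was at 28.98, 27.9, 28.4, 29.5 and 30.7 CPM in the day 3 grafts, 31.4, 30.2, 27.03, 29.8 and 29.5 CPM in the day 7 grafts, and 13.7, 11.6, 8.86, 13.9 and 15.1 CPM in the controls. The 10 grafts lay between 27.0 and 31.4 CPM, all above the highest control, control 5 at 15.1 CPM. Against controls Pdp1 had a log2 change of 1.22 ± 0.12 at day 3 (adjusted p = 1.42e-06) and 1.25 ± 0.12 at day 7 (adjusted p = 1.08e-06). Pdp2, the other catalytic subunit, fell in the same libraries and was at 9.81, 8.36, 8.31, 6.95 and 9.36 CPM in the day 3 grafts, 7.60, 8.47, 7.29, 8.97 and 5.98 CPM in the day 7 grafts, and 47.95, 40.0, 29.4, 44.5 and 23.7 CPM in the controls. The highest graft was at 9.81 CPM and the lowest control at 23.7 CPM, so the groups did not overlap. Pdp2 changed by -2.08 ± 0.20 at day 3 (adjusted p = 1.35e-06) and -2.24 ± 0.21 at day 7 (adjusted p = 6.92e-07) on the log2 scale, and -1.40 and -1.45 in a fit on log2(TPM + 1), which compresses low levels. Pdpr, the regulatory subunit, fell by less, with -1.11 at day 3 and -0.90 at day 7.

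Pcx, pyruvate carboxylase, had the largest fall of the 34 genes at both days. It was at 24.4, 73.6, 53.6, 33.2 and 52.04 CPM in the day 3 grafts, 14.2, 22.1, 19.7, 23.9 and 14.97 CPM in the day 7 grafts, and 1581, 1438, 1045, 2500.5 and 686 CPM in the controls. The controls ranged from 686 CPM in control 5 to 2500.5 CPM in control 4, and no graft exceeded 73.6 CPM. Among the grafts, day 3 graft 1 was lowest of its day, at 24.4 CPM, just above the highest day 7 graft at 23.9 CPM. The log2 change against control was -4.91 ± 0.34 at day 3 (adjusted p = 1.40e-07) and -6.16 ± 0.36 at day 7 (adjusted p = 3.17e-08). At day 7 only 0.517% of tested genes had a change at least as low, and at day 3 1.41%.

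**Figure D3:**
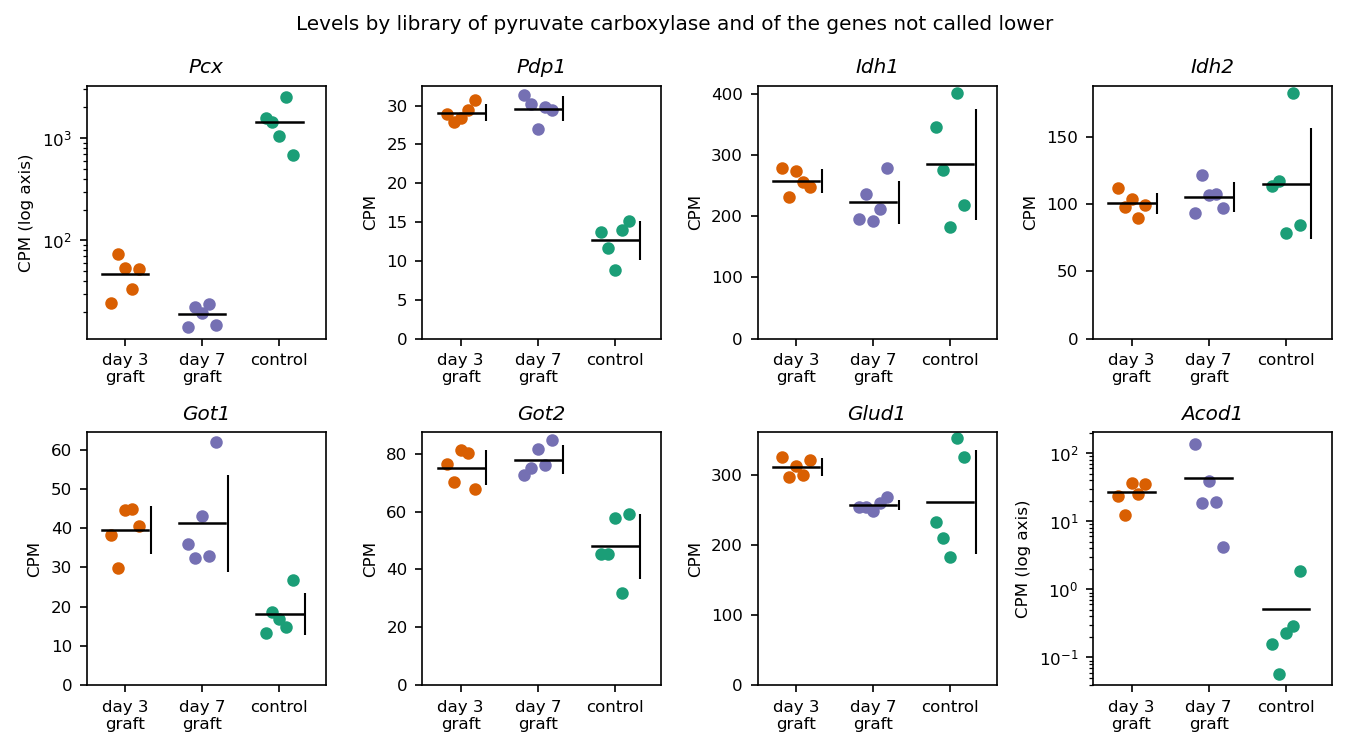
CPM in each library (points) and group mean (line) for Pcx and for the 7 genes that were not called lower, with the SD of the 5 samples as a vertical bar on the linear axes and none on the log axes of Pcx and Acod1. In CPM, Pcx separates all 3 groups, with a narrow gap between the days that is absent in TPM. Pdp1, Got1, Got2 and Acod1 separate grafts from controls, and Idh1, Idh2 and Glud1 overlap with the controls.

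The segment from citrate to oxoglutarate split by enzyme. Cs, citrate synthase, averaged 197 ± 13.4 CPM in day 3 grafts, 184 ± 13.7 CPM in day 7 grafts and 739 ± 301 CPM in controls (SD, n = 5 each) and changed by -1.81 at day 3 and -1.91 at day 7. Aco1, the cytosolic aconitase that also acts as an iron-regulated RNA-binding protein, changed by -1.75 at day 3 and -1.79 at day 7. The NAD-dependent isocitrate dehydrogenase of the cycle, made of Idh3a, Idh3b and Idh3g, fell in all its subunits. Idh3a, the catalytic subunit, was at 64.3, 57.6, 57.5, 42.5 and 67.00 CPM in the day 3 grafts, 60.5, 58.8, 54.6, 58.1 and 58.5 CPM in the day 7 grafts, and 440.3, 352, 212, 492 and 232 CPM in the controls. Day 3 graft 4 was the lowest of the 15 libraries, and no graft came near the lowest control, control 3. Its log2 change was -2.52 ± 0.20 at day 3 (adjusted p = 3.15e-07) and -2.50 ± 0.20 at day 7 (adjusted p = 2.56e-07). The regulatory subunits Idh3b and Idh3g changed by -1.75 at day 3 and -1.77 at day 7 and by -2.01 at day 3 and -2.04 at day 7. Idh3b overlaps Nop56 on the opposite strand, which held 58.2% as many counts as Idh3b, and the sources used here do not say whether counting used the strand.

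The NADP-dependent isocitrate dehydrogenases did not pass the test. Idh1, the cytosolic enzyme, which yields NADPH, was at 279, 231, 273, 255 and 249 CPM in the day 3 grafts, 195, 236, 193, 211 and 278 CPM in the day 7 grafts, and 346, 275, 182, 402 and 218 CPM in the controls. Grafts and controls overlapped throughout, and the controls spanned a wider range than the grafts of either day. Idh1 had a log2 change of -0.088 ± 0.19 at day 3 (adjusted p = 0.696) and -0.31 ± 0.18 at day 7 (adjusted p = 0.159). Idh2, the mitochondrial enzyme, was at 112, 98.3, 104, 89.9 and 99.2 CPM in the day 3 grafts, 93.6, 122, 107, 108 and 97.6 CPM in the day 7 grafts, and 114, 117, 78.7, 183 and 84.9 CPM in the controls. Only control 4 and the lower pair of controls, 3 and 5, lay outside the range of the grafts. The log2 change of Idh2 was -0.13 ± 0.18 at day 3 (adjusted p = 0.536) and -0.068 ± 0.18 at day 7 (adjusted p = 0.756). Both genes changed sign with the scaling: on log2(TPM + 1), where the median of all genes shifted to 0.22 at day 3 and 0.33 at day 7, Idh1 was at 0.22 and 0.10, and Idh2 at 0.14 and 0.33 (adjusted p = 0.0304 at day 7). Idh1 was called lower at day 7 with sample quality weights (-0.47, adjusted p = 0.00316) and without control 3 (-0.45, adjusted p = 0.0292). Without control 4 both were at 0.066 at day 3.

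All 5 genes from oxoglutarate to succinate fell. Sucla2, the beta subunit of the ADP-forming succinyl-CoA ligase, changed most at day 3. It was at 70.1, 71.9, 76.6, 62.5 and 68.1 CPM in the day 3 grafts, 68.1, 64.6, 59.97, 56.7 and 69.5 CPM in the day 7 grafts, and 329.8, 269, 146, 358 and 196 CPM in the controls. The highest graft, day 3 graft 3 at 76.6 CPM, was below the lowest control, control 3 at 146 CPM. Its log2 change was -1.82 ± 0.19 at day 3 (adjusted p = 2.13e-06) and -1.96 ± 0.19 at day 7 (adjusted p = 1.07e-06). Suclg2, the beta subunit of the GDP-forming ligase, changed by less, with -1.14 at day 3 and -1.32 at day 7, and Suclg1, the alpha subunit that both ligases share, by -1.54 at day 3 and -1.40 at day 7. Ogdh, the E1 enzyme of the oxoglutarate dehydrogenase complex, changed by -1.64 at day 3 and -1.53 at day 7. Dlst, the E2 core of that complex, fell least of the 5 and averaged 181 ± 8.97 CPM in day 3 grafts, 147 ± 6.39 CPM in day 7 grafts and 319 ± 76.5 CPM in controls (SD, n = 5 each), with log2 changes of -0.79 ± 0.14 at day 3 (adjusted p = 0.000189) and -1.08 ± 0.14 at day 7 (adjusted p = 1.01e-05).

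Succinate dehydrogenase, which is also complex II of the respiratory chain, fell in its 4 subunits by unequal amounts. Sdha, the flavoprotein that oxidises succinate, was at 198, 197, 214, 187 and 206 CPM in the day 3 grafts, 194, 206, 195, 188 and 174 CPM in the day 7 grafts, and 996, 863, 565, 1305 and 581 CPM in the controls. Grafts of both days lay between 174 and 214 CPM, and the controls between 565 and 1305 CPM. Sdha changed by -2.03 ± 0.18 at day 3 (adjusted p = 5.71e-07) and -2.10 ± 0.18 at day 7 (adjusted p = 3.53e-07) on the log2 scale. Sdhb, the iron-sulfur subunit, changed by -1.44 at day 3 and -1.45 at day 7. The membrane anchors changed least: Sdhc by -0.79 ± 0.17 at day 3 (adjusted p = 0.000943) and -0.93 ± 0.17 at day 7 (adjusted p = 0.000238), and Sdhd by -0.76 ± 0.15 at day 3 (adjusted p = 0.000600) and -0.85 ± 0.15 at day 7 (adjusted p = 0.000239). The 95% interval of Sdha at day 3 ran from -2.41 to -1.65 and that of Sdhd from -1.09 to -0.44, a contrast picked after the values were seen and not tested further.

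From fumarate to oxaloacetate the cytosolic malate dehydrogenase stood out. Mdh1, which reduces oxaloacetate in the cytosol as part of the malate-aspartate shuttle, was at 133, 153, 137, 113 and 144 CPM in the day 3 grafts, 127, 164, 137, 130.1 and 129 CPM in the day 7 grafts, and 809, 700.4, 490.2, 1084 and 675 CPM in the controls. No graft exceeded 164 CPM and no control was under 490 CPM. Its log2 change was -2.42 ± 0.16 at day 3 (adjusted p = 1.29e-07) and -2.41 ± 0.16 at day 7 (adjusted p = 8.06e-08). Mdh2, the malate dehydrogenase of the cycle, averaged 147 ± 15.7 CPM in day 3 grafts, 139 ± 8.996 CPM in day 7 grafts and 364 ± 121 CPM in controls (SD, n = 5 each) and changed by -1.25 at day 3 and -1.33 at day 7. Fh1, fumarate hydratase, changed by -1.59 at day 3 and -1.54 at day 7; it overlaps Kmo on the opposite strand, which held 15.5% as many counts as Fh1.

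Both transaminases, which link the cycle to aspartate and glutamate, rose, and glutamate dehydrogenase was not called. Got1, the cytosolic aspartate transaminase, was at 38.1, 29.9, 44.5, 44.8 and 40.4 CPM in the day 3 grafts, 35.9, 32.3, 43.2, 32.9 and 61.9 CPM in the day 7 grafts, and 13.3, 18.6, 16.9, 14.9 and 26.8 CPM in the controls. Day 7 graft 5 was highest, and the lowest graft, day 3 graft 2 at 29.9 CPM, was just above the highest control, control 5 at 26.8 CPM. Got1 changed by 1.15 ± 0.21 at day 3 (adjusted p = 0.000324) and 1.19 ± 0.21 at day 7 (adjusted p = 0.000246) on the log2 scale. Got2, the mitochondrial aspartate transaminase, was at 76.6, 70.2, 81.5, 80.2 and 67.8 CPM in the day 3 grafts, 72.6, 75.03, 81.7, 76.1 and 84.8 CPM in the day 7 grafts, and 45.4, 45.5, 57.9, 31.8 and 59.2 CPM in the controls. The grafts lay between 67.8 and 84.8 CPM and the controls between 31.8 and 59.2 CPM, with control 4 lowest, unlike in most other genes of the pathway. The log2 change of Got2 was 0.68 ± 0.14 at day 3 (adjusted p = 0.000816) and 0.73 ± 0.14 at day 7 (adjusted p = 0.000447). Glud1, glutamate dehydrogenase, which turns glutamate into oxoglutarate, was at 325, 296, 313, 299 and 321 CPM in the day 3 grafts, 254, 253, 249, 259 and 268 CPM in the day 7 grafts, and 233, 209.7, 183, 352 and 325 CPM in the controls. The grafts of each day were tightly grouped, while controls 4 and 5 lay above the day 7 grafts and controls 1, 2 and 3 below them. The log2 change of Glud1 was 0.30 ± 0.15 at day 3 (adjusted p = 0.0969) and 0.029 ± 0.15 at day 7 (adjusted p = 0.879). At day 3 it was called higher under 6 of 27 alternatives, at 0.34 to 0.58, among them the fits without control 4 (0.44, adjusted p = 0.00824) and without control 5 (0.40, adjusted p = 0.0315), and at day 7 it was called higher on TPM alone (0.48, adjusted p = 0.00128).

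Acod1 makes itaconate from cis-aconitate in activated macrophages, and it was nearly absent from the controls. It was at 23.9, 12.3, 36.3, 25.1 and 35.4 CPM in the day 3 grafts, 137, 18.6, 39.4, 19.1 and 4.25 CPM in the day 7 grafts, and 0.157, 0.0580, 0.226, 0.295 and 1.85 CPM in the controls. Control 5 was the highest control, day 7 graft 5 the lowest graft and day 7 graft 1 the highest library of all, and grafts and controls did not overlap. The log2 change was 6.33 ± 1.78 at day 3 (adjusted p = 0.00674) and 6.32 ± 1.78 at day 7 (adjusted p = 0.00676). Acod1 passed the filter on low counts through the grafts, since 1 of 5 controls reached the minimum level, so its difference from controls is given as a description. The size of the change depends on few counts in the controls and on single libraries. Without control 5 it was 6.999 at day 3 and 6.98 at day 7 (adjusted p = 0.0168 for each), and at day 7 it was 5.72 without day 7 graft 1 and 6.91 without day 7 graft 5. In a fit on log2(CPM + 1) it was 4.20 at both days, on log2(TPM + 1) 3.67 at day 3 and 3.79 at day 7, and with sample quality weights 7.31 and 7.44. Control 5 also had the highest summed macrophage markers of the controls, 3320 CPM against 1189 to 1440 CPM, and the highest neutrophil markers, 159 CPM against 18.9 to 35.7 CPM. Day 7 graft 1 had the highest neutrophil markers of the grafts, 914 CPM against 70.6 to 525 CPM in the other 9. Their part in the level of Acod1 was not tested.

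Ratios of paired enzymes within a library do not depend on the scaling between libraries. They were computed as log2 ratios of TPM, which is per transcript length, with a pseudocount of 0.1 TPM. Each of 7 pairs was compared in 3 comparisons with an exact two-sided permutation test, adjusted over the 21 tests, and the smallest p that 5 against 5 samples allow is 0.00794. Pdp1 over Pdp2 moved most at day 3: its log2 ratio was 2.88 ± 0.19 in day 3 grafts, 3.09 ± 0.22 in day 7 grafts and -0.44 ± 0.50 in controls (SD, n = 5 each). The difference from controls was 3.32 (adjusted p = 0.0185) at day 3 and 3.53 (adjusted p = 0.0185) at day 7 by the exact permutation test, with no overlap. Control 5 had a ratio of 0.45, above the -0.76 to -0.58 of the other controls. Mdh1 over Mdh2, cytosolic over mitochondrial, was -0.50 ± 0.32 in day 3 grafts, -0.42 ± 0.21 in day 7 grafts and 0.77 ± 0.21 in controls (SD, n = 5 each). Mdh1 was thus the lower of the pair in all 10 grafts and the higher in all 5 controls, with differences of -1.27 (adjusted p = 0.0185) at day 3 and -1.18 (adjusted p = 0.0185) at day 7 (exact permutation test).

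Pcx over Pdha1 sets RNA of the enzyme that carboxylates pyruvate against RNA of a subunit of the complex that oxidises it. Its log2 ratio was -2.46 ± 0.70 in day 3 grafts, -3.61 ± 0.32 in day 7 grafts and 0.20 ± 0.30 in controls (SD, n = 5 each). The differences from controls were -2.66 (adjusted p = 0.0185) at day 3 and -3.81 (adjusted p = 0.0185) at day 7 by the exact permutation test. Sucla2 over Suclg2, ADP-forming over GDP-forming, differed from controls by -0.67 (adjusted p = 0.0185) and -0.63 (adjusted p = 0.0185) in the same test, also with no overlap. Mpc1 over Mpc2 differed by -0.62 (adjusted p = 0.0185) at day 3 and -0.18 (adjusted p = 0.119) at day 7. Got1 over Got2, cytosolic over mitochondrial, differed by 0.44 (adjusted p = 0.0417) at day 3 and 0.44 (adjusted p = 0.144) at day 7, with overlapping groups at both days. Its call at day 3 was lost with a pseudocount of 1 TPM (0.41, adjusted p = 0.0556) and when any of 12 samples was left out (adjusted p = 0.05 to 0.0833). Idh1 over Idh2 differed by 0.077 (adjusted p = 0.519) and -0.23 (adjusted p = 0.186), and the call at day 7 appeared without day 7 graft 5 (-0.34, adjusted p = 0.0303).

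**Figure D4:**
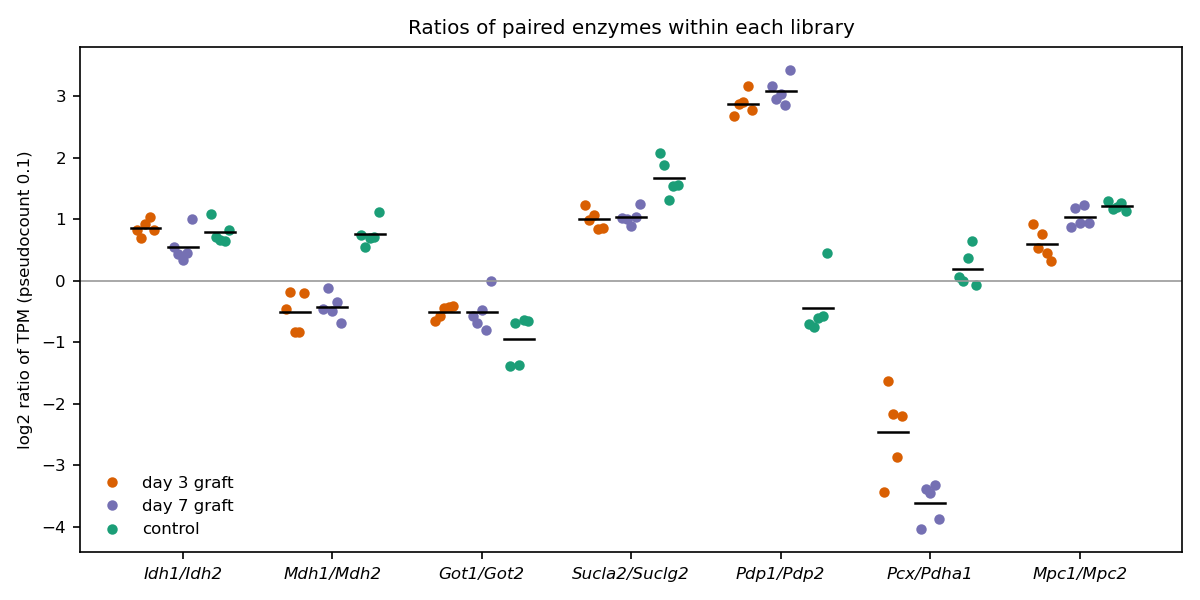
The log2 ratio of TPM of 7 enzyme pairs in each library (points), with group means as lines, for day 3 grafts, day 7 grafts and controls. Grafts and controls do not overlap at either day for Mdh1/Mdh2, Sucla2/Suclg2, Pdp1/Pdp2 and Pcx/Pdha1, and they overlap for Idh1/Idh2 and Got1/Got2.

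On the same scale per length, the 34 genes together made up 2325 to 2683 TPM in day 3 grafts, 2378 to 2792 TPM in day 7 grafts and 5560 to 8623 TPM in controls, with no overlap. Their order changed as well. Mpc1 was the most abundant of the 34 by mean TPM in controls, at 831 TPM, while it ranked 7 in day 3 grafts, at 116 TPM, and 6 in day 7 grafts, at 137 TPM. Pcx ranked 29 at day 3, 32 at day 7 and 4 in controls, at 17.2, 7.27 and 411 TPM. Mdh2 ranked first in the grafts, at 196 TPM at day 3 and 202 TPM at day 7, and 5 in controls, at 372 TPM. Idh1 ranked 3 at both days and 18 in controls, and its share of the summed TPM was 6.14% to 7.27% in day 3 grafts, 5.31% to 7.46% in day 7 grafts and 2.03% to 2.33% in controls. Glud1 ranked 4 at day 3, 5 at day 7 and 23 in controls. Neighbours in this order often lay closer than their spread, as Mdh2 and Sdhd did in day 3 grafts, at 196 ± 20.5 and 189 ± 13.02 TPM (SD, n = 5).

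Between the graft days, Pcx was the only gene of the pathway that was called. In day 7 against day 3 grafts, limma-voom called 1 of 34 genes lower, beside 1.71% of all tested genes, and 0 higher, beside 3.18%. The median log2 change was -0.063, against 0.019 over all tested genes. Without adjustment 2 of the 34 genes (5.88%) had a p under 0.05, both lower, beside 20.2% of all tested genes, and limma-trend, fitted to log2(CPM + 1) or to the deposited TPM, also called 0 genes higher. The 95% interval of the change lay within 1 log2 unit for 32 of 34 genes and within 0.5 log2 units for 20. Levels in CPM did not overlap between the days for 5 genes, beside 7.89% of all tested genes. All 5 were lower at day 7: Pcx, Dlat, Pdhx, Dlst and Glud1. In TPM, of these only Glud1 did not overlap between the days. Of the 10 adipocyte markers, 8 were lower at day 7 than at day 3, at a list median of -1.82, and of the 8 macrophage markers none was called, at a median of 0.14.

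The fall of Pcx between the days was -1.25 ± 0.31 on the log2 scale (adjusted p = 0.0327, limma), with 18.98 ± 4.28 CPM at day 7 and 47.4 ± 19.2 CPM at day 3 (SD, n = 5 each). In scaled CPM all 5 day 7 grafts were below all 5 day 3 grafts. In TPM the days overlapped, with day 3 graft 1 at 8.96 TPM and day 7 graft 4 at 9.58 TPM. Its size was -1.06 to -1.46 under the 27 alternatives. The call was lost without day 3 graft 2, 3 or 5 (adjusted p = 0.0627, 0.0814 and 0.0741) and without day 7 graft 1, 2, 3 or 4 (adjusted p = 0.0843, 0.0639, 0.0714 and 0.0562), and with no filter on low counts (adjusted p = 0.118). Relative to Pdha1 the difference was -1.15 (adjusted p = 0.0417) in the exact permutation test, and that of Mpc1 over Mpc2 was 0.44 (adjusted p = 0.0333), both with overlapping groups. Leaving out any of 9 of the 10 grafts ended the call for Pcx over Pdha1 (adjusted p = 0.0556 to 0.0833) and any of 8 that for Mpc1 over Mpc2 (adjusted p = 0.0513 to 0.0667), where 4 against 5 samples allow no p under 0.0159. The other 5 pairs had adjusted p from 0.0897 for Idh1 over Idh2 to 1 for Got1 over Got2 in this test, and Idh1 over Idh2 was called without day 7 graft 5 (-0.42, adjusted p = 0.0303). Dlst changed by -0.30 ± 0.13 (adjusted p = 0.225) and Dlat by -0.30 ± 0.18 (adjusted p = 0.393). Glud1 changed by -0.28 ± 0.16 (adjusted p = 0.348). With only the graft groups in the fit, Dlst, Dlat and Glud1 were called lower (adjusted p = 0.0229, 0.0257 and 0.0269), beside 4.30% of all tested genes, and with sample quality weights Dlst and Glud1 were (adjusted p = 0.0445 and 0.0359), beside 9.55%. Between the days Acod1 changed by -0.018 ± 0.65 (adjusted p = 0.992).

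**Figure D5:**
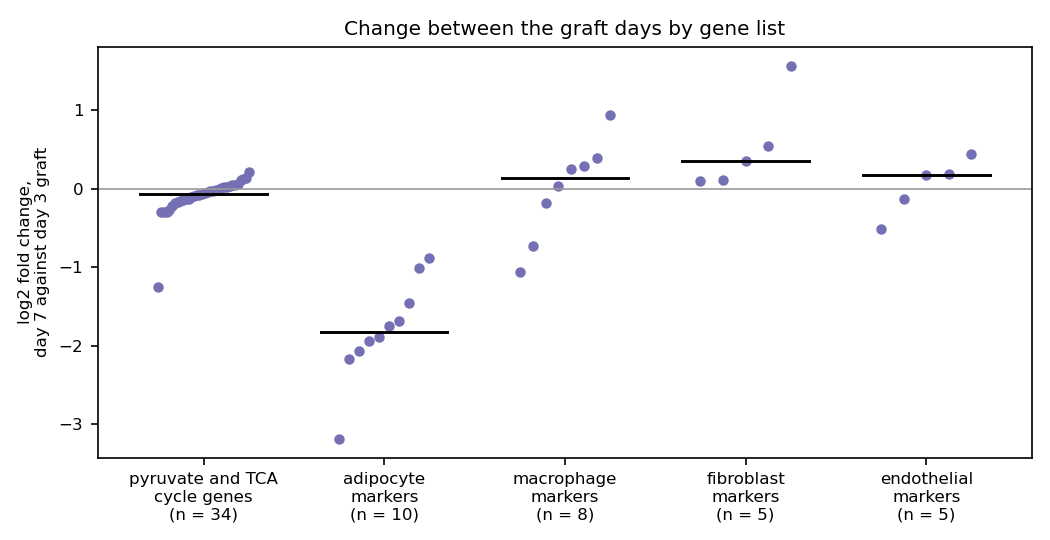
The log2 fold change in day 7 against day 3 grafts of each gene (points, sorted within a list), with the list median as a line, for the 34 pathway genes and 4 lists of cell type markers. The pathway genes lie near 0 with Pcx at -1.25 below them, while the 10 adipocyte markers all lie below 0, at a median of -1.82.

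Genes that act next to the pathway were read from lists chosen with the pathway. Their counts are to be read beside the 30.1% of all tested genes called higher and 30.2% called lower at day 3, and 32.3% and 28.4% at day 7, since for lists this short several lie near those shares. Of the 7 kinases that phosphorylate PDH and enzymes that attach its lipoyl group, 2 were higher and 4 lower at day 3, and 1 was higher and 4 lower at day 7. Pdk2, a PDH kinase, changed by -2.59 at day 3 and -3.14 at day 7, and the lipoyltransferase gene Lipt1 by -1.83 at day 3 and -1.83 at day 7, while the kinase Pdk3 rose by 1.38 at day 3 and 1.34 at day 7. Of 11 genes of other routes that refill the cycle or draw from it, 4 were higher and 6 lower at day 3, and 3 were higher and 6 lower at day 7. Among those higher at day 3 was Gls2, which passed the filter through the grafts. Since 1 of 5 controls reached the minimum level, no call of Gls2 is read as a result. Me1, the cytosolic malic enzyme, changed by -5.05 at day 3 and -5.24 at day 7, Pck1, the cytosolic phosphoenolpyruvate carboxykinase, by -4.13 at day 3 and -5.75 at day 7, and Gpt, an alanine transaminase, by -3.34 at day 3 and -4.14 at day 7. Of 5 tested mitochondrial carriers among 6 listed, 2 were higher and 3 lower at both days. The citrate carrier Slc25a1 changed by -4.08 at day 3 and -4.45 at day 7 and the dicarboxylate carrier Slc25a10 by -3.21 at day 3 and -3.60 at day 7, while Slc25a13, an aspartate-glutamate carrier, rose by 2.16 at day 3 and 2.23 at day 7.

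Among 4 assembly factors of succinate dehydrogenase, Sdhaf1 (-0.90 at day 3 and -0.83 at day 7) and Sdhaf3 (-1.0002 at day 3 and -0.95 at day 7) were lower and the others were not called. Of 5 related dehydrogenases, 3 were lower at both days, led by Dhtkd1 of lysine breakdown (-2.92 at day 3 and -3.29 at day 7), and 2 were higher at day 7, of which one was Ogdhl, an Ogdh-like gene. Ogdhl averaged 0.258 ± 0.114 CPM in day 3 grafts, 1.24 ± 0.416 CPM in day 7 grafts and 0.291 ± 0.0933 CPM in controls (SD, n = 5 each). It passed the filter of 0.389 CPM through the day 7 grafts, with 0 of 5 day 3 grafts and 1 of 5 controls at that level, so its calls at day 7 are not read as a result. Of 8 tested regulators of mitochondrial genes among 9 listed, 1 was higher and 5 lower at both days. The coactivator gene Ppargc1a changed by -4.56 at day 3 and -5.34 at day 7 and the nuclear receptor gene Esrrg by -3.58 at day 3 and -4.34 at day 7, and the coactivator gene Ppargc1b by -2.64 at day 3 and -2.57 at day 7. Esrrg passed the filter through the controls, with 1 day 3 graft and 0 day 7 grafts at that level, so its fall is a description. The gene that rose was Hif1a, of the oxygen-regulated factor, with 1.35 at day 3 and 1.83 at day 7, named after its values were seen. Clybl, which acts in the breakdown of an itaconate product, and Sucnr1, the receptor for extracellular succinate, were both lower, with -1.21 at day 3 and -2.003 at day 7 and -2.50 at day 3 and -3.56 at day 7.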

How the data were processed

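Trizol and RNeasy columns were used to extract RNA, and TruSeq libraries that keep the strand of the mRNA were read from both ends at 151 bp, per the labels' protocols. STAR 2.7.1a, RSEM 1.3.1, cutadapt 2.8 and the build mm10 are listed in the submitters' processing notes, with no role or order. The deposited matrix held 55471 genes with whole-number read counts, RPKM and TPM per sample, made by the authors with an annotation release that no source used here names. The deposited TPM served for ratios, levels per length and an alternative fit, and the deposited RPKM, scaled by the authors for length and depth, only for an alternative of the ratios.

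The count columns carry digit separators, which were removed so that the values could be read as whole numbers, and no count model was used. Genes with at least 0.389 CPM (10 counts at the median library size) in 5 samples and 15 counts in all were tested. Scaling between libraries used the trimmed mean of M-values, trimming 30% of log ratios and 5% of abundances, which sets the bulk of genes near a change of 0. Voom in limma 3.58.1 (R 4.3.3) was fitted to 15 samples with 3 group means, and p-values were adjusted by Benjamini-Hochberg over all tested genes. Levels are CPM of the scaled library, and changes are log2 fold changes ± SE. The fit was tested on simulated data.

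The genes, lists and tests were chosen with earlier results of these data known. Values in every sample were given for Acod1, for genes called against the majority or not called against control, and for the largest change at day 3 in each step. In each neighbouring list up to 3 called genes were named, and Hif1a was added after its values were seen. Ratios were tested in Python 3.11.15 with scipy 1.17.1 and figures drawn with matplotlib 3.10.9. Replicate numbers were not used as pairs in the main fit. Of 15 pairs of samples with the same number, 5 had correlated deviations above 0.1, with a highest correlation of 0.34, which does not exclude pairing. Alternatives changed the scaling, the filter, the model, the samples in the fit and the pseudocount, added a replicate block, or left out samples. Sequences were not used here.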

Additional observations from a re-analysis of the deposited data

Results flagged for a closer look

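Within groups of 5 samples, 3 of 102 combinations of gene and group held a sample far from the others, where chance gives about 1 in 20. Mpc1 was lowest in day 7 graft 3, at 47.6 CPM, Aco1 was lowest in day 3 graft 4, at 70.8 CPM, and Acod1 was highest in control 5, at 1.85 CPM.

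Between the graft days, Pcx differed by -1.25 on the log2 scale in day 7 against day 3 grafts, the ratio of Pcx over Pdha1 by -1.15 and the ratio of Mpc1 over Mpc2 by 0.44. Each of these tests passed its threshold with all samples and lost it when most of the single grafts were left out.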

How the results depend on the processing

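For day 3 and day 7 grafts against controls, the counts of genes called higher and lower stayed within 1.5 times under all 27 alternatives. In day 7 against day 3 grafts the count called lower, 1 with all samples, was 0 with no filter on low counts (beside 0.882% of all genes), 3 with sample quality weights (Pcx, Dlst and Glud1, beside 9.55%), 4 with only the 2 groups compared (Pcx, Dlst, Dlat and Glud1, beside 4.30%) and 0 to 1 when each sample was left out; the cause was not tested. With the replicate block the counts were 27 lower and 4 higher at both days and 1 lower between the days, and no call changed. In 2 of 15 checks over the comparisons a sample correlated best with the sample of its own number.

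Changes near 0 reversed. Idh1 was at 0.22 (day 3) and 0.10 (day 7) on TPM, and -0.23 to 0.066 at day 3 with samples left out. Idh2 was at 0.14 and 0.33 on TPM and 0.012 at day 7 with library totals, and -0.25 to 0.066 (day 3) and -0.19 to 0.12 (day 7) with samples left out. Glud1 at day 7 was at -0.0093 with median-of-ratios and -0.030 with upper-quartile scaling, -0.016 with 2 groups, -0.040 without control 2 and day 3 graft 1, and -0.084 to 0.16 with samples left out. Acod1 between the days was at 0.0076 with upper-quartile scaling, 0.0041 with library totals, 0.13 with quality weights, 0.12 on TPM, 0.59 without day 3 graft 1 and day 7 graft 5, and -0.62 to 0.58 with samples left out. Ratios between the days spanned -0.00058 to 0.16 (Mdh1 over Mdh2), -0.13 to 0.070 (Got1 over Got2) and -0.012 to 0.097 (Sucla2 over Suclg2) with samples left out. The cause was not tested.

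The median change of all genes was 0.22 at day 3 and 0.33 at day 7 on TPM, 0.12 at day 7 with library totals, and -0.18 and -0.12 with no filter. Levels of Acod1 in controls rest on few counts, which limits the precision of its change. The planned search of promoters for motifs was not run.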
